A study of Mus musculus with 12 samples.

Results

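The 10 genes described here are factors and transcriptional targets of the Hippo-YAP pathway: the coactivators Yap1 and Wwtr1 (which encodes TAZ), the DNA-binding factors Tead1 and Tead3, the pathway regulators Lats2, Amotl2 and Ajuba, and the target genes Ctgf, Cyr61 and Ankrd1. They were picked by gene symbol out of 23337 gene symbols counted by RNA sequencing, with earlier results of these data known. All 10 passed the filter on low counts that 12406 genes passed. Ajuba is listed in the count table under its older symbol, Jub. The 12 libraries came from NU1, a spontaneously immortalized line of mouse urothelial cells, the epithelium that lines the bladder. Each library is labelled with a hairpin: shNT, the control, whose genotype is labelled WT, or sh4, a lentiviral short hairpin RNA against the cohesin gene Stag2, whose genotype is labelled Stag2-KD. All cultures were grown in EpiLife medium with 15% serum, 5 ng/ml EGF, 0.3 mM calcium chloride, insulin, transferrin, T3, hydrocortisone and cholera toxin. The proliferating shNT and sh4 groups were growing cultures, and the day 7 shNT and sh4 groups were grown to confluence, given 1 µM rosiglitazone (an agonist of the nuclear receptor PPAR gamma) and 0.5 µM erlotinib (an inhibitor of the EGF receptor kinase), and labelled quiescent, differentiation day 7. Each group held 3 libraries, 1 each from experiments 5, 7 and 9, and each experiment is also a batch in the labels. Confluence, the drugs and the time in culture changed together, so their contributions to any day 7 difference cannot be told apart, and with 1 hairpin an effect of lost Stag2 and an off-target effect of sh4 cannot be told apart either.

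The Hippo pathway is a kinase cascade that responds to cell density, junctions and the cytoskeleton. The kinases encoded by Lats1 and Lats2 phosphorylate YAP and TAZ, which are then held in the cytoplasm or degraded, and without that phosphorylation YAP and TAZ enter the nucleus and switch on genes through TEAD proteins. Epithelial cells at high density are known for keeping YAP out of the nucleus, a control of protein location that RNA counts do not measure.

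Library totals ran from 14524429 to 21987539 counts. Stag2 was lower in every sh4 library than in any shNT library of the same state: 24.6 to 33.3 CPM against 113 to 145 CPM in proliferating cells, and 9.43 to 15.3 CPM against 107 to 128 CPM at day 7 (CPM, the unit of all levels here, is a gene's share of the TMM-scaled library total). All 5 proliferation genes examined (Mki67, Top2a, Ccnb1, Pcna and Mcm5) fell at day 7 under both hairpins in edgeR's quasi-likelihood test, which matches the state labels. At day 7 the mean levels of 4 of these 5 (all but Pcna) were higher with sh4 than with shNT. Mcm5, a replication licensing gene, was 11.7 to 19.3 against 3.24 to 6.61 CPM, and the summed CPM of the 5 was 79.1 to 167 against 57.0 to 94.8. Mcm5 passed in edgeR (adjusted p = 0.0451), in 1 of 12 fits that each left out 1 library (without proliferating sh4 experiment 5, adjusted p up to 0.155 in the others), and in 12 of 12 with the experiment number in the model. Of 12 epithelial and urothelial markers, 9 passed the filter, with Krt7, Krt8, Krt18, Krt19, Cdh1 and Epcam abundant, while the basal gene Trp63 was listed at 0 in all 12 libraries and the terminal differentiation genes Upk1b, Upk2 and Upk3a reached at most 2.23, 1.45 and 0.0453 CPM, so defining markers of the urothelium were at or near 0. Summed fibroblast markers (8 genes) reached at most 2.27 CPM, smooth muscle markers (4 genes) 0.716 CPM, endothelial markers (4 genes) 0.239 CPM and immune markers (5 genes) 9.42 CPM in any library. In bulk RNA, fewer cells that express a gene and less of its RNA per cell cannot be told apart.

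Between proliferating and day 7 shNT cells, Tead1 fell and the other 9 genes did not pass the test, whose threshold was an edgeR p-value below 0.05 after Benjamini-Hochberg adjustment over all 12406 genes. That is 1 of 10 genes beside 20.0% of all genes tested (8.33% higher and 11.7% lower). With the experiment number added to the model (the replicate block), 6 of the 10 passed, beside 35.3% of all genes (16.8% higher and 18.5% lower): Tead1 lower, and Tead3, Ctgf, Cyr61, Amotl2 and Ajuba higher. The values of the day 7 and proliferating shNT libraries did not overlap for 5 of the 10, beside 35.6% of all genes. The median log2 fold change of the 10 was 0.47, and that of all genes was 0.00.

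Between proliferating and day 7 sh4 cells, Tead1 fell and Ankrd1 and Ajuba rose, 3 of 10 genes beside 18.4% of all genes tested (7.59% higher and 10.8% lower). With the replicate block 5 of 10 passed, beside 33.0% of all genes (15.9% higher and 17.2% lower), with Cyr61 and Amotl2 added on the higher side. The groups did not overlap for 5 of the 10, beside 37.2% of all genes, and the median log2 fold change was 0.35 against 0.00 for all genes. These counts describe the 10 genes, and none of them was tested as particular to the 10.

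Knockdown of Stag2 moved none of the 10 past the threshold in edgeR's test, in either state. In proliferating cells the share of all genes that passed was 0.0242%. At an unadjusted p below 0.05, 1 of the 10 genes (Wwtr1) and 228 of all genes remained in edgeR, or 1 and 645 with the replicate block. DESeq2 called 0 of the 10 and 12 of all genes (0.0967%). At day 7 the share of all genes that passed was 0.435%, or 3.55% with the replicate block, which called 1 of the 10 genes, Wwtr1, on the lower side, as it did 1.96% of all genes. Without the block, 1 of the 10 genes and 1489 of all genes had an unadjusted edgeR p below 0.05 at day 7, and with it 3 and 2527. There DESeq2 called 1 of the 10 (again Wwtr1) and 390 of all genes (3.14%). The sh4 and shNT groups did not overlap for 1 of the 10 genes in proliferating cells, beside 5.31% of all genes, and for 3 of the 10 at day 7, beside 19.1%.

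**Figure D1:**
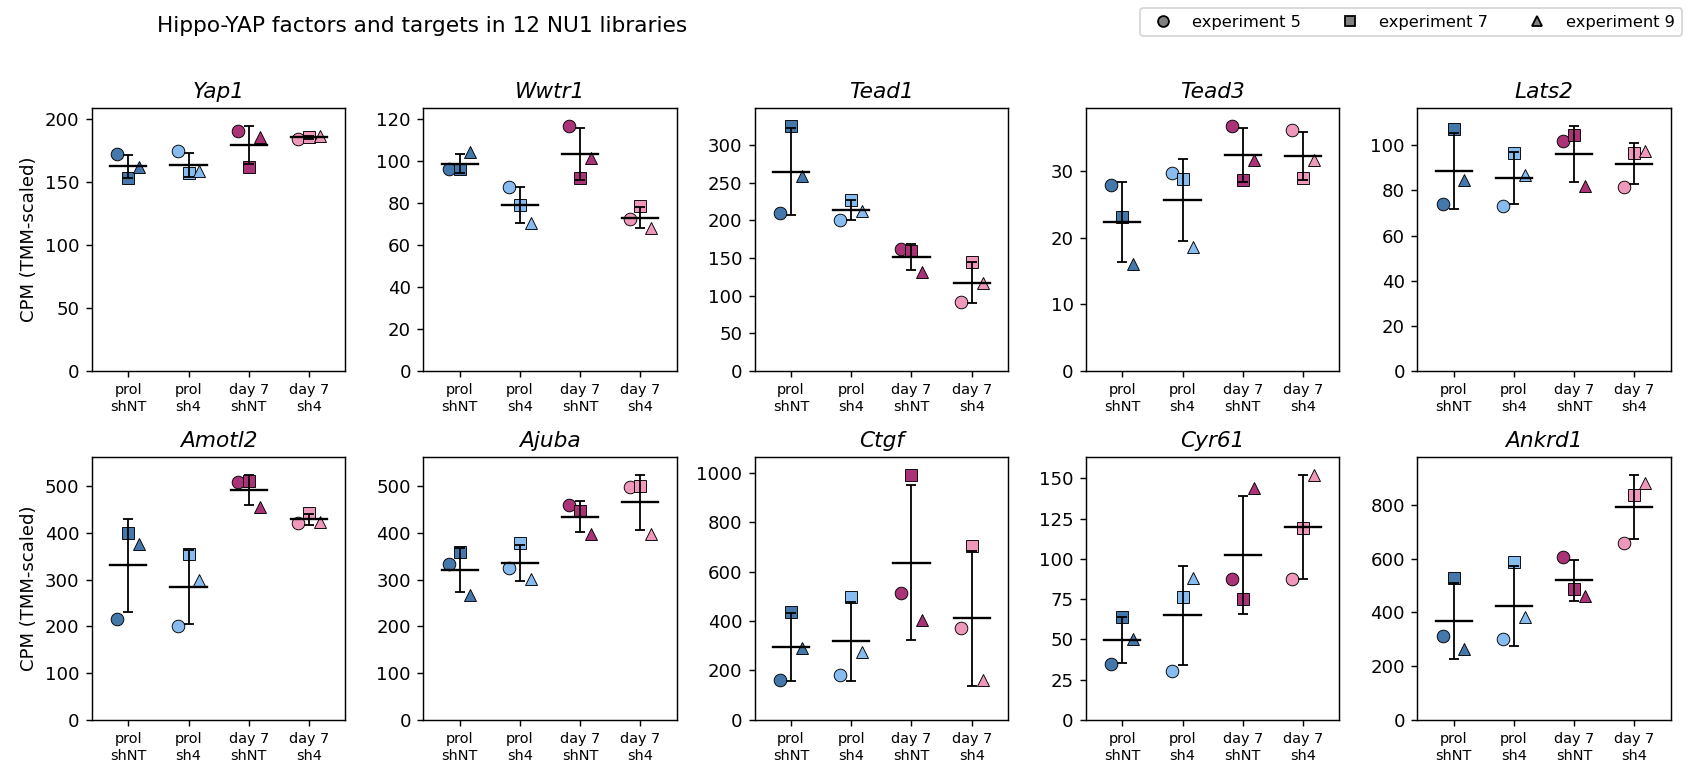
CPM of each gene in each library (points, shaped by experiment) with the group mean (line) and SD (bar), n = 3 libraries per group, each panel on its own axis from 0. Tead1 is lower in all 6 day 7 libraries than in the 6 proliferating libraries, and Wwtr1 is lower in sh4 than in shNT libraries of the same state.

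Yap1, the main coactivator of the pathway, differed little between any groups. It stood at 172, 153 and 162 CPM in proliferating shNT cells (experiments 5, 7 and 9, the order kept below) and at 174, 157 and 158 CPM in proliferating sh4 cells. At day 7 it was 190.2, 162 and 186 CPM with shNT and 184, 186 and 187 CPM with sh4. The proliferating groups overlapped, and the day 7 sh4 libraries lay above the proliferating sh4 ones by a small margin. Its log2 fold change was 0.14 (adjusted p = 0.345 in edgeR, SE 0.10) at day 7 in shNT cells and 0.18 (SE 0.10, adjusted p = 0.230) in sh4 cells. For knockdown it was 0.01 (SE 0.10) in proliferating cells and 0.05 (SE 0.10) at day 7. Within a group the highest Yap1 library exceeded the lowest by 1.01 to 1.17 times.

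Wwtr1 encodes TAZ, the YAP paralog that uses the same TEAD partners. In proliferating cells it was 95.9, 95.9 and 104 CPM with shNT and 87.3, 78.7 and 70.5 CPM with sh4. Day 7 values were 117, 91.6 and 101 CPM with shNT and 72.4, 78.3 and 68.1 CPM with sh4. Every sh4 library was below every shNT library of its state. The log2 fold change for knockdown was -0.32 (SE 0.12) in proliferating cells, with an unadjusted p of 0.021 and an adjusted p of 1.00 in edgeR. At day 7 it was -0.50 (SE 0.12, a fold of 0.707), with an edgeR adjusted p of 0.109, of 0.0422 with the replicate block and of 0.00739 in DESeq2. The blocked call held in 3 of 12 fits that each left out 1 library, namely without proliferating shNT experiment 5, proliferating shNT experiment 9 or day 7 sh4 experiment 7, and the adjusted p over the 12 fits ran from 0.0351 to 0.153. The day 7 sh4 libraries also stood apart in the summed CPM of the 12 urothelial and epithelial markers, at 21148 to 22753 against 12111 to 18859 in day 7 shNT, and had higher Mcm5 (above). Krt8 and Krt18, with means of 8909 and 6127 CPM in day 7 sh4, were the largest terms of that sum. Of the 9 tested markers 7 had higher fitted values with sh4, and Cdh1 and Epcam lower ones. Cdh1 was 1058 to 1568 CPM with sh4 and 1714 to 2311 CPM with shNT. The part of these differences in the Wwtr1 result was not tested. The change of Wwtr1 from proliferating to day 7 cells was 0.07 (SE 0.12) with shNT and -0.11 (SE 0.12) with sh4, and neither passed.

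The ratio of Wwtr1 to Yap1 within a library, which does not depend on library scaling, showed the same split between hairpins. It averaged 0.608 ± 0.0439 (SD, n = 3; range 0.558 to 0.641) in proliferating shNT cells and 0.483 ± 0.0326 (0.445 to 0.502) in proliferating sh4 cells. At day 7 it averaged 0.574 ± 0.0347 (0.545 to 0.613) with shNT and 0.393 ± 0.0285 (0.365 to 0.422) with sh4. The sh4 and shNT ranges did not overlap in either state. These ratios compare counts and not molecules, since the 2 transcripts differ in length.

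**Figure D2:**
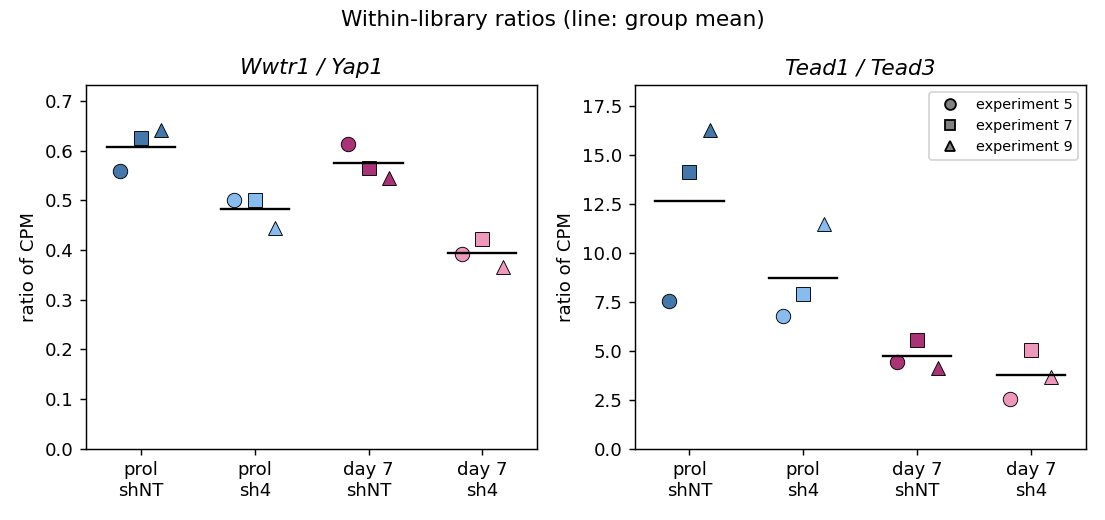
Ratio of CPM of Wwtr1 to Yap1 (left) and of Tead1 to Tead3 (right) in each library (points, shaped by experiment) with the group mean (line), both axes from 0. The Wwtr1 to Yap1 ratio is at most 0.502 in every sh4 library and at least 0.545 in every shNT library, and the Tead1 to Tead3 ratio is at most 5.57 in every day 7 library.

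Tead1 encodes 1 of the TEAD proteins that carry YAP and TAZ to DNA, and it was the 1 gene of the 10 that edgeR called at day 7 under both hairpins without the replicate block. With the block Cyr61, Amotl2 and Ajuba were called under both as well. In proliferating cells it was 209.8, 326 and 259 CPM with shNT and 201, 227 and 213 CPM with sh4. Day 7 cells had 163, 159.7 and 131 CPM with shNT and 90.8, 145 and 116 CPM with sh4. All day 7 libraries lay below all proliferating ones, in each of the 3 experiments. With shNT the log2 fold change was -0.81 (adjusted p = 0.0133 in edgeR, SE 0.19), a fold of 0.570, and with sh4 it was -0.86 (SE 0.19, adjusted p = 0.0107), a fold of 0.549. The sh4 call held in 12 of 12 fits that each left out 1 library. The shNT call held in 10 of 12, with a log2 fold change of -0.64 and adjusted p of 0.0611 without proliferating shNT experiment 7, and of -0.72 and 0.0545 without day 7 shNT experiment 9. With the replicate block the shNT call held in 12 of 12. For knockdown Tead1 was lower in all 3 experiments of both states, with log2 fold changes of -0.31 (SE 0.19) in proliferating cells and -0.36 (adjusted p = 0.500 in edgeR, SE 0.19) at day 7. Neither passed, and the sh4 and shNT groups overlapped.

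Tead3, another TEAD gene and the least abundant of the 10, moved in the other direction at day 7. In proliferating cells it was 27.9, 23.1 and 16.0 CPM with shNT and 29.7, 28.8 and 18.6 CPM with sh4. The day 7 libraries had 36.8, 28.7 and 31.7 CPM with shNT and 36.1, 28.9 and 31.7 CPM with sh4, so the 2 day 7 groups were nearly the same in each experiment. The shNT groups did not overlap, by a margin of under 1 CPM, and the sh4 groups did. The log2 fold change at day 7 was 0.54 (SE 0.22) with shNT, with an edgeR adjusted p of 0.115 and of 0.0241 with the replicate block. That blocked call was lost without proliferating shNT experiment 7 or 9 or day 7 shNT experiment 5 or 9, with adjusted p up to 0.113. With sh4 the log2 fold change was 0.33 (SE 0.22, adjusted p = 0.337). The ratio of Tead1 to Tead3 averaged 12.6 ± 4.54 (SD, n = 3) in proliferating shNT, 8.70 ± 2.44 in proliferating sh4, 4.71 ± 0.757 in day 7 shNT and 3.73 ± 1.25 in day 7 sh4 cells, and no day 7 library reached the lowest proliferating value of 6.76.

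The kinase gene Lats2, which is both an inhibitor of YAP and TAZ and a target gene they switch on, was as flat as Yap1 in the group means. It was 74.2, 107 and 84.7 CPM in proliferating shNT, 73.2, 96.6 and 86.9 CPM in proliferating sh4, 102, 105 and 81.8 CPM in day 7 shNT and 81.4, 96.5 and 97.6 CPM in day 7 sh4 cells. All 4 groups overlapped. The largest of its 4 log2 fold changes was 0.12 (adjusted p = 0.653 in edgeR, SE 0.16), for day 7 against proliferating shNT cells.

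Amotl2 encodes an angiomotin, a junction protein that binds YAP and is also induced by it. It was 216, 399 and 376 CPM in proliferating shNT and 199.6, 355 and 299 CPM in proliferating sh4 cells. Day 7 levels were 509, 512 and 455 CPM with shNT and 422, 443 and 423 CPM with sh4. Day 7 libraries were above all proliferating libraries of the same hairpin, and at day 7 all 3 sh4 libraries were below the shNT ones. The day 7 log2 fold change was 0.57 (SE 0.24) with shNT and 0.59 (SE 0.24) with sh4, with edgeR adjusted p of 0.109 and 0.105, and of 0.0279 and 0.0270 with the replicate block. The blocked call held in 9 of 12 fits that each left out 1 library with shNT, being lost without proliferating shNT experiment 5 or 7 or day 7 shNT experiment 5, with adjusted p up to 0.120. With sh4 it held in 8 of 12, being lost without experiment 5 or 9 of either sh4 group, with adjusted p up to 0.127. For knockdown at day 7 the log2 fold change was -0.20 (SE 0.24, adjusted p = 0.815).

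Ajuba encodes a LIM-domain scaffold protein that binds and restrains the LATS kinases. It was 334, 359 and 268 CPM in proliferating shNT and 326, 378 and 302 CPM in proliferating sh4 cells. In day 7 cells it was 461, 447 and 398 CPM with shNT and 499, 501 and 398 CPM with sh4. The day 7 libraries were above all proliferating libraries under both hairpins, and experiment 9 was the lowest library in all 4 groups. Ajuba rose at day 7 in sh4 cells by a log2 fold change of 0.47 (adjusted p = 0.0480 in edgeR, SE 0.15). In shNT cells the value was 0.44 (SE 0.15), with an adjusted p of 0.0582, and of 0.00604 with the replicate block. The sh4 call without the block held in 2 of 12 fits that each left out 1 library, without proliferating shNT experiment 9 or day 7 sh4 experiment 9, with adjusted p from 0.0367 to 0.144. It was also lost without a filter on low counts (0.0820) and in a fit to the sh4 libraries alone (0.0712). With the block, the calls under both hairpins held in 12 of 12. For knockdown the log2 fold change was 0.07 (SE 0.15) in proliferating cells and 0.10 (SE 0.15) at day 7.

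**Figure D3:**
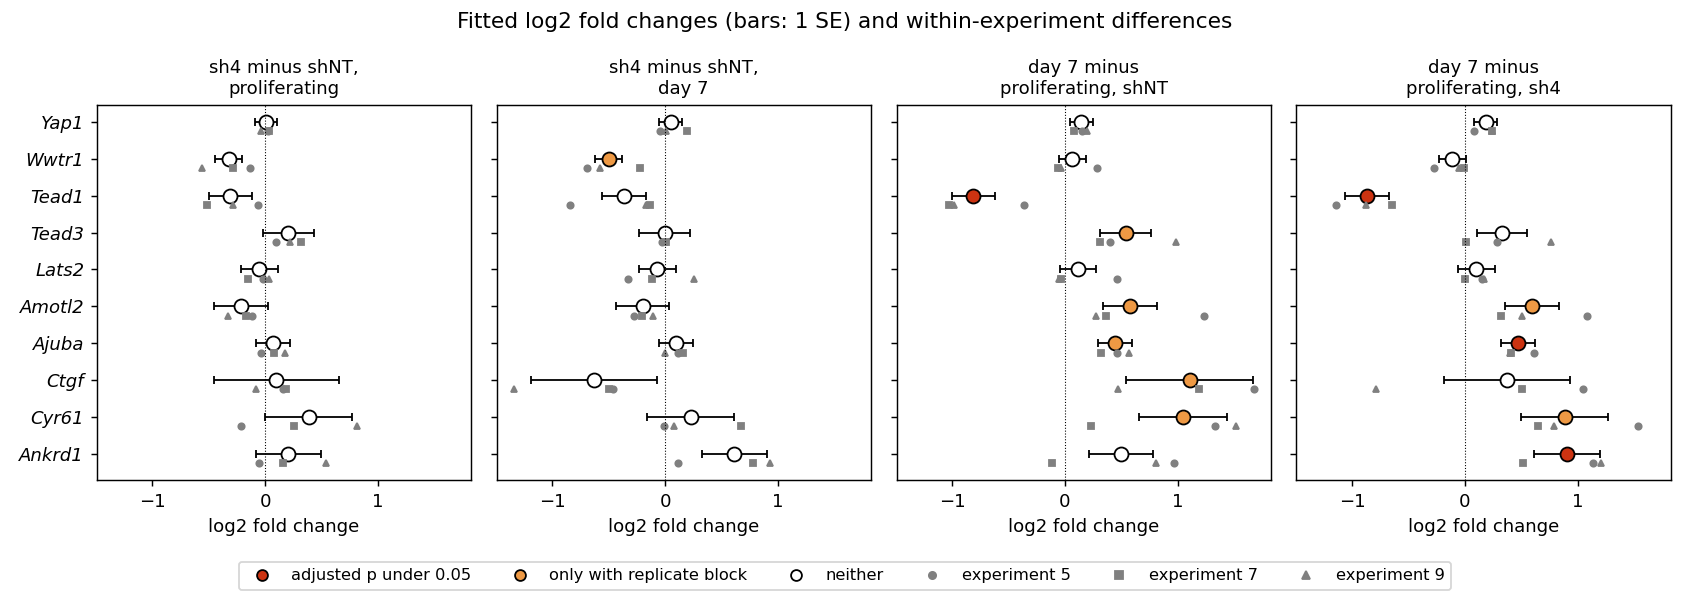
Log2 fold change of each gene (large points, bars 1 SE) in 4 comparisons, with the differences within experiments 5, 7 and 9 as small grey points. Tead1 passes in both day 7 comparisons, Ankrd1 and Ajuba in sh4 cells, and no gene passes in the knockdown comparisons, all in edgeR without the replicate block.

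Since TEAD proteins recognise the letters GGAATG, or CATTCC on the other strand, the 250 bases upstream of each RefSeq transcription start (GRCm38.p6) were searched for both. RefSeq windows were matched for 8 of the 10 genes, all but Ctgf and Tead1. Of these 8, 7 held at least 1 match, all but Lats2, and 14.4% of the 27025 genes with such windows did. The 8 were chosen as factors and targets of this pathway, and the difference between these shares was not tested. Tead3 had 3 windows, and Wwtr1 and Lats2 had 2 each. The 30 bases around the matches are shown for the coactivator gene Wwtr1, whose sh4 and shNT libraries did not overlap, and for the 4 genes that edgeR called higher at day 7 in sh4 cells, Ankrd1 and Ajuba without the replicate block and Cyr61 and Amotl2 only with it. Each reads 5′ to 3′ on the strand of its gene, with the match in capitals.
Cyr61, chr3:145650071-145650100, minus strand: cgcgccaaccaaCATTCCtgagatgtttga
Ankrd1, chr19:36120037-36120066, minus strand: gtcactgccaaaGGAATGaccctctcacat
Ankrd1, chr19:36119950-36119979, minus strand: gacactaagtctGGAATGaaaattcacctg
Amotl2, chr9:102717727-102717756, plus strand: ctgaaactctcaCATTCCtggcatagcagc
Ajuba, chr14:54577830-54577859, minus strand: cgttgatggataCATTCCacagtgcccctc
Ajuba, chr14:54577808-54577837, minus strand: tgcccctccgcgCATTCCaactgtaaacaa
Wwtr1, chr3:57576029-57576058, minus strand: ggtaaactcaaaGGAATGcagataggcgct

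The Cyr61, Ajuba and Wwtr1 windows lie outside any transcript of GENCODE M21, while those of Ankrd1 and Amotl2 lie in an exon of a longer transcript of the same gene. The match in Cyr61 starts 103 bases upstream of the RefSeq start, that in Amotl2 65 bases, and those in Ankrd1 210 and 123 bases. A match is a description of letters and says nothing of whether a TEAD protein was bound there in these cells. Matches were also found for Yap1, which did not pass in any comparison, and for Tead3, called higher at day 7 in shNT cells only with the block.

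Ctgf, a secreted matricellular protein and a standard readout of YAP and TAZ activity, varied more between experiments than between groups. It was 161, 436 and 292 CPM in proliferating shNT cells and 180.1, 496 and 276 CPM in proliferating sh4 cells. In day 7 libraries it was 514, 993 and 405 CPM with shNT and 373, 703 and 159.7 CPM with sh4. Experiment 7 was the highest library in all 4 groups, the highest library exceeded the lowest by 2.45 to 4.40 times within a group, and all groups overlapped. The day 7 log2 fold change in shNT cells was 1.10 (SE 0.56), a fold of 2.15, with an edgeR adjusted p of 0.188. Taking out the experiment differences with the replicate block brought it to 0.0241, and the differences within experiments 5, 7 and 9 were 1.67, 1.19 and 0.47. The blocked call was lost without experiment 5 or 7 of either shNT group, with adjusted p up to 0.0910. In sh4 cells the value was 0.38 (SE 0.56, adjusted p = 0.676), and the within-experiment differences of 1.05, 0.50 and -0.79 did not share a sign. For knockdown at day 7 Ctgf was lower in 3 of 3 experiments, by 0.46, 0.50 and 1.34 on the log2 scale (fitted value -0.63, SE 0.56, edgeR adjusted p = 0.736, and 0.252 with the replicate block). For knockdown in proliferating cells the value was 0.10 (SE 0.56).

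Cyr61 belongs to the same protein family as Ctgf and is likewise a direct target. It was 35.0, 63.8 and 50.2 CPM in proliferating shNT and 30.2, 76.2 and 88.2 CPM in proliferating sh4 cells. Day 7 libraries had 87.8, 75.0 and 144 CPM with shNT and 87.4, 119.5 and 152 CPM with sh4. The day 7 shNT libraries were all above the proliferating ones, and in sh4 cells the groups overlapped by under 1 CPM. The log2 fold change at day 7 was 1.04 (SE 0.39) with shNT and 0.88 (SE 0.39) with sh4, with edgeR adjusted p of 0.0814 and 0.136, and of 0.00968 and 0.0151 with the replicate block. The blocked calls held in 11 and 10 of 12 fits that each left out 1 library. They were lost without proliferating shNT experiment 9 (adjusted p = 0.0505) in the shNT comparison, and without proliferating sh4 experiment 5 or day 7 sh4 experiment 9 (up to 0.0600) in the sh4 comparison. Knockdown values were 0.39 (SE 0.39) in proliferating cells and 0.23 (SE 0.38) at day 7, with overlapping groups. The ratio of Ctgf to Cyr61 in day 7 sh4 libraries ran from 1.05 to 5.89, and in day 7 shNT libraries from 2.81 to 13.2, so these targets did not keep a fixed proportion.

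Ankrd1 encodes a nuclear ankyrin-repeat protein and is among the most used YAP target genes. It was 310.3, 528 and 265 CPM in proliferating shNT and 299.6, 587 and 383 CPM in proliferating sh4 cells. At day 7 it was 607, 487 and 462 CPM with shNT and 657, 838 and 882 CPM with sh4. The day 7 sh4 libraries were above every other library, while the 2 shNT groups overlapped. Ankrd1 rose at day 7 in sh4 cells, with a log2 fold change of 0.90 (adjusted p = 0.0495 in edgeR, SE 0.29), a fold of 1.87. That call held in 3 of 12 fits that each left out 1 library, without proliferating shNT experiment 7 or 9 or proliferating sh4 experiment 7. The adjusted p over the 12 fits ran from 0.0256 to 0.145, it was 0.0565 without a filter on low counts, and with the replicate block the call held in 9 of 12. The summed CPM of the urothelial and epithelial markers was 21148 to 22753 in day 7 sh4 and 14246 to 16374 in proliferating sh4 cells. Of the 9 tested markers, edgeR called Krt19 higher and Krt5 and Epcam lower between these groups. The part of the marker differences in the Ankrd1 result was not tested. In shNT cells the value was 0.50 (SE 0.29, adjusted p = 0.242), with experiment 7 going the other way. For knockdown at day 7 the log2 fold change was 0.61 (adjusted p = 0.434 in edgeR, SE 0.29), higher in 3 of 3 experiments.

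The difference between the knockdown effects in the 2 states was tested as an interaction. None of the 10 genes passed, beside 0% of all genes in edgeR, with or without the replicate block. At an unadjusted p below 0.05 there were 0 of the 10 and 219 of all genes (590 with the block), and DESeq2 called 0 of the 10 and 6 of all genes. The values farthest from 0 were those of Ctgf at -0.73 (SE 0.79) and Ankrd1 at 0.41 (SE 0.40), each with the same sign in 3 of 3 experiments. So the day 7 change of Ankrd1, called under sh4 and not under shNT, was not shown to differ between the hairpins.

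Levels of different genes were compared per kilobase of merged exon length. In day 7 shNT cells Ctgf stood first at 223 CPM per kb, followed by Ankrd1 at 179.8, Ajuba at 119 and Amotl2 at 78.2. Cyr61 followed at 50.6, and the group of Wwtr1 (21.6), Yap1 (19.4), Lats2 (13.8) and Tead1 (11.1 CPM per kb) came below, with Tead3 last at 4.82. The place of Yap1 depends on the length used: over its principal transcript, a choice made after seeing the data, it was 43.6 CPM per kb, above Wwtr1 and nearer to Cyr61 at 50.6, and in proliferating shNT cells 39.5 beside 24.6 for Cyr61. The spread of Ctgf (SD 109) was wider than its distance to Ankrd1 and Ajuba, and the SD of Wwtr1 (2.63) was wider than its distance to Yap1 per merged exon length. Ankrd1 led in the other 3 groups, at 127 in proliferating shNT, 147 in proliferating sh4 and 275 CPM per kb in day 7 sh4 cells. Tead1 stood seventh in proliferating shNT cells (19.5 ± 4.30 CPM per kb, SD, n = 3) and ninth in both day 7 groups.

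The other genes of the pathway were taken from lists of known components. Of 13 core and upstream kinase genes and their partners, all tested, Wwc1 rose and Sav1 fell at day 7 under both hairpins, and the other 11 did not pass. That is 2 of 13, beside 20.0% of all genes with shNT and 18.4% with sh4. Wwc1 encodes KIBRA, an upstream activator of the LATS kinases, and its log2 fold change was 0.82 (adjusted p = 0.00299 in edgeR, SE 0.15) with shNT and 0.60 (SE 0.15, adjusted p = 0.0164) with sh4. Sav1 encodes the scaffold of the MST kinases and changed by -0.48 (SE 0.11, adjusted p = 0.00908) and -0.49 (SE 0.11, adjusted p = 0.00870). The Wwc1 call with sh4 was lost without proliferating sh4 experiment 5 or 9 (adjusted p = 0.0527 and 0.0607). With the replicate block, Wwc2 and Taok3 also passed on the higher side with shNT. The blocked counts were 3 higher and 1 lower of 13 with shNT, beside 35.3% of all genes, and 1 and 1 with sh4, beside 33.0%. Lats1 was 166 ± 16.9 CPM in proliferating and 170.2 ± 12.6 CPM in day 7 shNT cells (SD, n = 3), and Nf2, the gene of the upstream regulator merlin, ran from 133 to 156 and from 148 to 170.5 CPM. Neither passed in any comparison. The list's median log2 fold change was 0.01 with shNT and 0.01 with sh4, near that of all genes.

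Among 17 genes of junction and cytoskeletal regulators, 15 were tested. Frmd6, which encodes the FERM protein willin, fell at day 7, with a log2 fold change of -0.95 (adjusted p = 0.0164 in edgeR, SE 0.23) with shNT and -0.98 (SE 0.23, adjusted p = 0.0147) with sh4. In sh4 cells Ctnna1 also fell, at -0.70 (SE 0.21, adjusted p = 0.0443), and Wtip, a LIM protein related to Ajuba, rose by 1.00 (SE 0.22, adjusted p = 0.0108), so that 1 gene of the 15 rose and 2 fell there, beside 7.59% and 10.8% of all genes, against 0 and 1 with shNT (8.33% and 11.7%). Leaving out 1 library ended the Frmd6 call without proliferating shNT experiment 7 or day 7 shNT experiment 5 or 9 (adjusted p up to 0.0684) and, with sh4, without proliferating sh4 experiment 7 or day 7 sh4 experiment 5 or 9 (up to 0.0682). The Ctnna1 call in sh4 cells was lost in 8 of 12 such fits, held without proliferating shNT experiment 5 or 9, proliferating sh4 experiment 9 or day 7 shNT experiment 5, and its adjusted p reached 0.150. With the replicate block, Wtip and Patj passed on the higher side under both hairpins, Frmd6 on the lower side under both, and Ctnna1, Ptpn14 and Rassf6 on the lower side with sh4. Of the 15, that is 2 higher and 1 lower with shNT, beside 35.3% of all genes, and 2 higher and 4 lower with sh4, beside 33.0%. Ctnna1 encodes alpha-catenin, the link between cadherin junctions and actin and a negative regulator of YAP. For knockdown at day 7 it was the 1 gene of the 15 that passed, from 1764, 1368 and 1373 CPM with shNT to 439, 493 and 399 CPM with sh4, a log2 fold change of -1.76 (SE 0.22, adjusted p = 0.00727). Without day 7 sh4 experiment 5 or 9 the adjusted p was 0.0510 or 0.0610. In proliferating cells it went from 1619, 1564 and 1177 to 901, 751 and 504 CPM, again without overlap, with a value of -1.02 (SE 0.22) and an adjusted p of 0.726 (0.0595 with the replicate block and 0.00428 in DESeq2). The sh4 and shNT groups did not overlap for 3 of the 15 genes in proliferating cells, beside 5.31% of all genes. At day 7 they did not overlap for 4, beside 19.1%. Ptpn14, a phosphatase gene that is both a YAP regulator and a target, was 211 ± 30.7 CPM in day 7 shNT and 96.4 ± 34.1 CPM in day 7 sh4 cells (SD, n = 3). Its log2 fold change was -1.13 (SE 0.22), with an edgeR adjusted p of 0.0530 and of 0.0114 with the replicate block.

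Of the other TEAD genes, Tead2 fell in sh4 cells at day 7, with a log2 fold change of -0.85 (adjusted p = 0.0432 in edgeR, SE 0.26), and in shNT cells its value was -0.39 (SE 0.26, adjusted p = 0.310). The Tead2 call was lost without experiment 5 or 9 of either sh4 group, without day 7 sh4 experiment 7 or without day 7 shNT experiment 5, with adjusted p up to 0.138. Tead4 had means of 40.5 ± 14.8 CPM in proliferating and 25.2 ± 6.38 CPM in day 7 shNT cells (SD, n = 3), and ran from 24.6 to 46.9 CPM in proliferating and from 19.0 to 26.8 CPM in day 7 sh4 cells. Its log2 fold changes were -0.68 (SE 0.32, adjusted p = 0.151) and -0.78 (SE 0.32, adjusted p = 0.112, and 0.0294 with the replicate block). Tead1, Tead2 and Tead4 thus all had lower means at day 7 under both hairpins, and Tead3 higher means. In this list of 6, which also holds the Vgll cofactor genes, 5 were tested. With sh4 1 of them, Tead2, was called, beside 18.4% of all genes, and with shNT 0, beside 20.0%. With the replicate block Vgll1 passed on the higher side under both hairpins, and Tead2 and Tead4 on the lower side with sh4. The blocked shares of all genes were 35.3% with shNT and 33.0% with sh4.

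**Figure D4:**
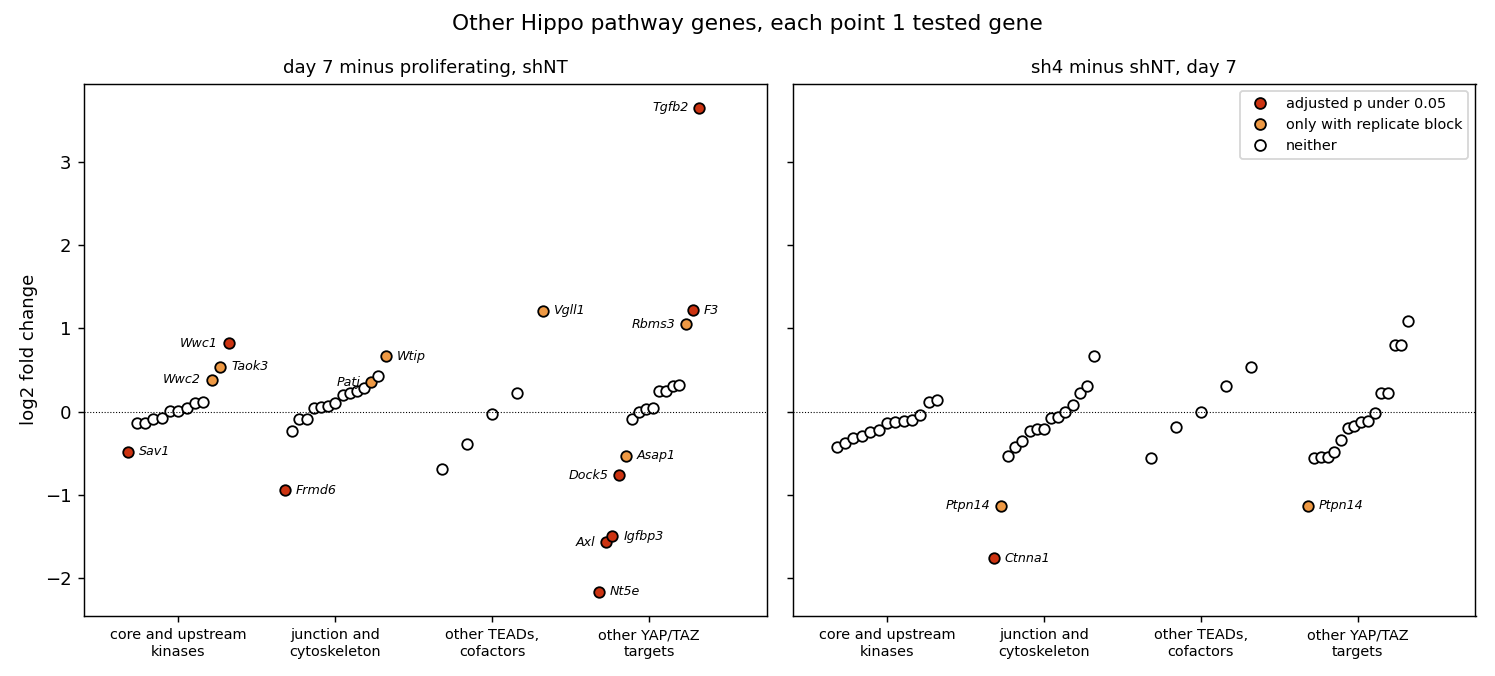
Log2 fold change of every tested gene of the 4 lists of other pathway genes, at day 7 against proliferating shNT cells (left) and for knockdown at day 7 (right), sorted within each list, with Ptpn14 in 2 lists. The YAP/TAZ targets spread from Nt5e at -2.16 to Tgfb2 at 3.64 on the left, and Ctnna1 is the lowest point on the right.

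The other YAP/TAZ targets did not move as a block. Of 17 genes of a target signature known from human cancers, 16 were tested, and at day 7 in shNT cells 2 rose, 4 fell and 10 did not pass, beside 8.33% higher and 11.7% lower of all genes, with a median log2 fold change of 0.04 against 0.00 for all genes. Tgfb2, a secreted growth factor, rose from 2.58 ± 0.977 to 32.4 ± 4.64 CPM (SD, n = 3), or 3.64 on the log2 scale (adjusted p = 5.14e-05 in edgeR, SE 0.31), and F3, which encodes tissue factor, rose by 1.22 (SE 0.34, adjusted p = 0.0292). Nt5e, the gene of the ecto-enzyme CD73, fell, at -2.16 (SE 0.20, adjusted p = 7.24e-05), the receptor kinase gene Axl, at -1.56 (SE 0.22, adjusted p = 0.000883) and Igfbp3, at -1.50 (SE 0.31, adjusted p = 0.00707). The F3 call was lost without proliferating shNT experiment 7 or 9 or day 7 shNT experiment 5 or 9 (adjusted p up to 0.112) and in a fit to the shNT libraries alone (0.0875). The fourth to fall was Dock5, a guanine nucleotide exchange factor gene. In sh4 cells 2 rose, F3 by 2.02 (SE 0.35) and Tgfb2 by 3.59 (SE 0.31), and 5 fell, namely Nt5e, Igfbp3, Dock5, Axl and Asap1, beside 7.59% higher and 10.8% lower of all genes. Leaving out 1 library ended the Dock5 call in shNT cells without proliferating shNT experiment 7 (adjusted p = 0.0528), and the Axl call in sh4 cells without proliferating sh4 experiment 7 or day 7 sh4 experiment 5 or 7 (up to 0.0716). Joined with Ctgf, Cyr61, Ankrd1, Amotl2 and Lats2, the signature had 21 tested genes, of which 2 rose and 4 fell with shNT and 3 rose and 5 fell with sh4, beside 20.0% and 18.4% of all genes in either direction. With the replicate block these counts became 6 higher and 5 lower with shNT, beside 35.3% of all genes, and 6 higher and 6 lower with sh4, beside 33.0%.

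For knockdown, none of the 16 other targets passed in edgeR in either state. In proliferating cells 0 of them and 228 of all genes had an unadjusted p below 0.05, or 3 and 645 with the replicate block. DESeq2 called 0 of them, beside 0.0967% of all genes. At day 7, 5 of the 16 and 1489 of the 12406 genes had an unadjusted p below 0.05, or 8 and 2527 with the replicate block. There the replicate block called 1 (Ptpn14), beside 3.55% of all genes, and DESeq2 called 2, beside 3.14%. F3 was 127 ± 61.4 CPM in day 7 shNT and 268 ± 57.4 CPM in day 7 sh4 cells, and Axl 213 ± 19.6 and 369 ± 71.3 CPM (SD, n = 3). Both were higher with sh4 in 3 of 3 experiments without overlap of the groups. The groups did not overlap for 6 of the 16 genes, beside 19.1% of all genes. The rest of these, Igfbp3, Nt5e, Asap1 and Ptpn14, were lower with sh4. Fitted values were positive for 5 of the 16, with a median log2 fold change of -0.15. The log2 fold changes of F3 and Axl were 1.08 (adjusted p = 0.218 in edgeR, SE 0.34) and 0.80 (SE 0.22, adjusted p = 0.160, and 0.0226 in DESeq2).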

How the data were processed

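The authors deposited 1 table of raw, unnormalized read counts per gene for the 12 libraries. Per the labels' protocols, polyadenylated RNA was sequenced with a stranded kit. The submitters' processing notes name TopHat, Bowtie, HTSeq, DESeq2 and the build mm10, without versions. The strand setting of the counting is not given in the sources used here, and Yap1 and Ctgf overlap antisense genes in GENCODE M21, and Lats2 a gene on its own strand.

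The tests were run with edgeR 4.0.16 in R 4.3.3: filterByExpr with a minimum count of 10, TMM scaling, 4 group means fitted to all 12 libraries by glmQLFit, glmQLFTest for 5 comparisons, and Benjamini-Hochberg adjustment over 12406 genes with a threshold of 0.05. SE is the size of the log2 fold change divided by the square root of its F statistic. DESeq2 1.42.0, the replicate block and the other settings in the closing section were alternatives. The groups are those of the labels, where the batch gives the experiment, so libraries of 1 experiment are paired. Deviations from the group means correlated at a mean r of 0.526 over 18 pairs of the same experiment (0.225 to 0.789) and at -0.259 over 36 pairs of different experiments and groups. Such deviations cancel out within a group, so the negative value largely follows from the positive one and is no separate evidence of pairing. No source says that the 3 libraries of a group were separate infections or cell stocks, so p-values measure the spread between these libraries, which may be partly technical. No 2 libraries held identical counts. The library totals limit sampling error only.

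The 10 genes and the gene lists were chosen with earlier results of these data known. Genes named are Stag2, the 10 genes, up to 3 called genes with the largest rise and 3 with the largest fall per list and comparison, and Ctnna1, Lats1, Nf2, Tead2 and Tead4. The 3 nearest profiles to Yap1 and to Ctgf are named in the closing section. Ptpn14, Rassf6, Wwc2, Taok3, Patj, Vgll1 and, for knockdown, Mcm5 were named after their values were seen. So were Dock5 in shNT cells, Axl and Asap1 in sh4 cells, and F3, Axl, Igfbp3, Nt5e and Asap1 for knockdown. Merged exon lengths came from GENCODE M21 and promoter sequences from RefSeq, both GRCm38, the build mm10. Figures were drawn with matplotlib 3.10.9.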

Additional observations from a re-analysis of the deposited data

How the results depend on the processing

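Among the 10 genes, the replicate block changed the count that passed from 0 to 1 for knockdown at day 7, from 1 to 6 for day 7 against proliferating shNT cells and from 3 to 5 for sh4 cells. DESeq2 gave 1, 3 and 3, a mean count of at least 50 gave 2 in shNT cells, and no filter gave 1 in sh4 cells. For all genes the block gave 440, 4374 and 4096, and DESeq2 gave 12 for knockdown in proliferating cells, 390 for knockdown at day 7 and 6 for the interaction. Fitting only the libraries of a comparison gave 1 for knockdown in proliferating cells and 1582 for shNT cells. The block changed no other call among the 10 genes. Leaving out each library in turn, the 10 genes' counts ran from 0 to 2 in shNT cells and from 1 to 3 in sh4 cells, and were 0 to 0 in both knockdown comparisons and the interaction. For all genes they ran from 1394 to 3078, from 1186 to 2408, from 1 to 3 (knockdown, proliferating), from 5 to 64 (knockdown, day 7) and from 0 to 0 (interaction). With the block as well, an alternative chosen after seeing the data, the 10 genes' counts ran from 3 to 6 (shNT, 4 without proliferating shNT experiment 5 or 9), from 2 to 5 (sh4) and from 0 to 1 (knockdown, day 7). Principal transcript lengths, also chosen after seeing the data, raised Yap1 from 17.5 to 39.5 CPM per kb in proliferating shNT cells (rank 8 to 5) and from 19.4 to 43.6 in day 7 shNT cells (rank 7 to 6), above Wwtr1 in both. Tead1 went from rank 7 to 6 in proliferating shNT cells, and in day 7 sh4 cells from rank 9 to 10, below Tead3.

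Only values that did not pass reversed, all on leaving out 1 library. The ranges that follow are from fits without the replicate block unless the block is named. For knockdown in proliferating cells the ranges were Ctgf -0.38 to 0.48, Tead2 -0.29 to 0.082, Yap1 -0.044 to 0.049, Lats2 -0.17 to 0.11, Tead4 -0.36 to 0.15, Ajuba -0.048 to 0.16 and Ankrd1 -0.11 to 0.56. For knockdown at day 7 they were Tead3 -0.097 to 0.090, Yap1 -0.024 to 0.086, Tead4 -0.35 to 0.018 and Lats2 -0.17 to 0.010. For day 7 in shNT cells they were Lats1 -0.041 to 0.10, Ctnna1 -0.086 to 0.13 and Wwtr1 -0.020 to 0.15, and in sh4 cells Lats2 -0.00084 to 0.20, Ctgf -0.25 to 0.85 and Lats1 -0.066 to 0.15. For the interaction they were Yap1 -0.030 to 0.091, Tead1 -0.23 to 0.10, Cyr61 -0.50 to 0.17, Lats2 -0.18 to 0.10, Ajuba -0.059 to 0.14 and Amotl2 -0.18 to 0.25. With the replicate block, Amotl2 (-0.36 to 0.018) and Cyr61 (-0.075 to 0.44) also reversed for knockdown at day 7. Lats2 (-0.019 to 0.25) also did so with the block for day 7 in shNT cells. The cause was not tested. Tead3, with 16.0 to 36.8 CPM, has the fewest counts of the 10 genes.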

Other observations

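The genes whose profile over the 12 libraries was nearest to that of Yap1, by mean absolute difference of log2 CPM centred on each gene's mean and among the 10301 genes whose mean log2 CPM was 2 or more, were Mark2 (0.0453), Sptlc2 (0.0506) and Trim8 (0.0540). Mark2 encodes a polarity kinase, and it was 170.1 ± 16.7 CPM in proliferating shNT and 195 ± 17.9 CPM in day 7 shNT cells (SD, n = 3). Those nearest to Ctgf were Grb10 (0.309), Gpt2 (0.334) and Pck2 (0.384). Grb10, an adaptor of insulin receptor signalling, went from 166 ± 97.2 to 240.5 ± 81.8 CPM. A floor of 4 in place of 2, with 8089 genes, named the same genes. All points share the same libraries and experiments.

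For some of the 10 genes the same experiment held the highest or the lowest library in every group, while the order of the other two varied. Ctgf and Amotl2 were highest in experiment 7 in 4 of 4 groups, Tead3 was highest in experiment 5 in 4 of 4, and Ajuba was lowest in experiment 9 in 4 of 4. Over groups, the highest library exceeded the lowest by 1.05 to 1.84 times for Amotl2 and by 1.25 to 1.75 times for Tead3. With the experiment number in the model, edgeR's common biological coefficient of variation went from 0.261 to 0.161.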
